A study of Homo sapiens with 6 samples.

Results

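The chaperonin genes were examined in BT-549 triple-negative breast cancer cells. The group was defined by gene symbol and comprised the 8 subunits of the cytosolic chaperonin TRiC (TCP1, CCT2, CCT3, CCT4, CCT5, CCT6A, CCT7 and CCT8) and the mitochondrial chaperonin pair HSPD1 and HSPE1. All 10 genes were found among the 19792 genes analysed, and in all 10 the mean normalized count reached 10. The TRiC subunits were abundant transcripts within a 3.33-fold range per kilobase of transcript, with TCP1 the highest and CCT7 the lowest. HSPD1 was the most abundant of the 10 genes by count, whereas HSPE1, which starts close to it in the genome, was listed 39.0-fold lower by count and 9.68-fold lower per kilobase.

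Chaperonins are barrel-shaped complexes that enclose an unfolded protein in a chamber and use ATP to close and open it. TRiC, also known as CCT, is built from stacked rings that each hold one copy of every subunit, and it folds actin, the tubulins and many proteins with WD40 propellers. HSPD1 encodes HSP60, which forms the ring of the mitochondrial chaperonin, and HSPE1 encodes HSP10, the lid of that chamber. TRiC thus folds proteins in the cytosol, and HSP60 with HSP10 folds proteins that have been imported into the mitochondrial matrix. Transcription of heat shock genes is driven by heat shock factors that bind repeats of GAA and TTC.

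The cells were BT-549/tet-WDR5shRNA, which carry a WDR5 shRNA in the pLKO-tet-puro vector under a tetracycline-inducible promoter and are resistant to puromycin. Libraries were made from 3 cultures with vehicle, which was 0.1% DMSO, and from 3 cultures with doxycycline (DOX) at 500 ng/ml for 7 days, and the cells of all 6 libraries carried the same shRNA. The study compared DOX with vehicle to find genes that depend on WDR5, a subunit of the complexes that methylate histone H3 at K4. A set of cells with a control shRNA was not analysed here, so an effect of DOX itself cannot be told apart from that of the shRNA. Only 1 value per gene was used here, the authors' mean normalized count over all 6 libraries. The level of each library, its depth and the spread between cultures are therefore unknown, the effect of DOX on the chaperonin genes was not analysed here, and all comparisons below are descriptions with no test. A gene that differs between vehicle and DOX has a mean that lies between its levels in the 2 groups.

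The labelled cell type was checked with markers chosen after values had been seen. The hormone receptor genes ESR1 and PGR had mean normalized counts of 0.790 and 0.801, and the receptor tyrosine kinase gene ERBB2 had 1221. Of the epithelial genes, EPCAM had 1.30 and CDH1, the E-cadherin gene, had 59.6, whereas the mesenchymal filament gene VIM had 47782. WDR5, the target of the shRNA, had 1143, a mean over both groups that does not check the labels. The mean normalized counts of all genes summed to 26551206.

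HSPD1 and HSPE1 start near each other on opposite strands of chromosome 2, and the RefSeq table of promoters (GRCh38.p14) gives 2 start sites for HSPD1 and 1 for HSPE1. The start of HSPE1 lies 539 bases from the HSPD1 start at 197499840 and 105 bases from the other HSPD1 start, at 197500274, and the genes are transcribed in opposite directions. The annotated HSPD1 gene reaches past these starts and spans HSPE1 on the opposite strand. A pair of windows is printed because they hold the neighbouring starts of both genes. The transcripts of HSPD1 and HSPE1 differed most among the 10 genes by count and per kilobase of canonical transcript. Each window runs from 250 bases before to 50 bases after a start. The first is the HSPE1 window, chr2:197500129-197500428 on the plus strand, with capitals for the 204 bases that it shares with the window of the nearer HSPD1 start. The second is the window of the other HSPD1 start, chr2:197499791-197500090 on the minus strand, with capitals for the heat shock element cores.
HSPE1: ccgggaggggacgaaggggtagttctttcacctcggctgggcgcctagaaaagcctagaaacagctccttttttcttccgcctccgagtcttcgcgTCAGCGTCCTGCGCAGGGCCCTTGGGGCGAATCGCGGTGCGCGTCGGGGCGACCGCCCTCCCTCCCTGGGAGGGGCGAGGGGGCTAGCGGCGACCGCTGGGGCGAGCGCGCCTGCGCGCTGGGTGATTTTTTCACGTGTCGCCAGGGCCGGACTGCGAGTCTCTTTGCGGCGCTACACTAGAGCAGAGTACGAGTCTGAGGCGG
HSPD1: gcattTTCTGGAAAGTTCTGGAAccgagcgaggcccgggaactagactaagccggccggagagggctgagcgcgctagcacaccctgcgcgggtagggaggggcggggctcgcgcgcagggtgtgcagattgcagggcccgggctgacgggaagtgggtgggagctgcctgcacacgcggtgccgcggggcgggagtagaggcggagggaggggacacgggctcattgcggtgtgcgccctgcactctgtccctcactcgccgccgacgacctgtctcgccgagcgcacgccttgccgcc
The capitals in the HSPD1 window hold 3 overlapping cores, a GAANNTTC between a pair of TTCNNGAA, which span 18 bases from 197500068 to 197500085. They lie 228 bases before the HSPD1 start at 197499840 and 294 bases before the HSPE1 start. They also lie after the HSPD1 start at 197500274, and so inside the annotated span of HSPD1. Cores were searched on both strands, and both read the same on either strand. Of all 35095 promoter windows of the same length, 0.194% held 3 or more cores, and 1 of the 12 windows of the chaperonin genes did so. A match gives letters in the window and does not show binding.

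TCP1 encodes the alpha subunit of TRiC, after which the complex was first named, and it was the most abundant of the 8 subunits. Its mean normalized count was 14351, or 6101 per kilobase of its canonical transcript. TCP1 ranked 224 among all genes by count and lay at the 98.3 percentile both by count and per kilobase. Percentiles are over genes whose mean normalized count reached 10, of which there were 13548 by count and 13242 with a transcript length. The gene lies on the minus strand of chromosome 6 (159778498 to 159789703, GRCh38, GENCODE 44), and its canonical transcript has 12 exons and 2352 bases.

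CCT3, the gamma subunit, had a mean normalized count of 11319 and 5725 per kilobase. CCT6A, the zeta subunit, had 12798 and 4953 per kilobase, and CCT8, the theta subunit, had 8789 and 4741 per kilobase. These 3 genes and TCP1 were above the median of the 8 subunits, which was 4429 per kilobase. CCT3 lies on chromosome 1 (156308968 to 156367873), CCT6A on chromosome 7 (56051685 to 56063989) and CCT8 on chromosome 21 (29055805 to 29073797).

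CCT2 and CCT5, the beta and epsilon subunits, were next to each other in the order per kilobase, at 4118 and 4101. By count they were 7890.1 and 13505, and their canonical transcripts have 1916 and 3293 bases. CCT5 is a gene in which inherited changes cause a sensory neuropathy. CCT5 was 1.54-fold higher than CCT8 by count but 0.865 of it per kilobase, so the order of the subunits was not the same on both scales. CCT2 lies on chromosome 12 (69585426 to 69601570) and CCT5 on chromosome 5 (10249929 to 10266389).

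CCT4 and CCT7, the delta and eta subunits, were the lowest on both scales. CCT4 had a mean normalized count of 5805 and 2443 per kilobase, and CCT7 had 3383 and 1831 per kilobase. CCT7 was thus at 0.413 of the subunit median and CCT4 at 0.552 of it. Even so, CCT7 lay at the 92.4 percentile per kilobase, and all of its fellow subunits lay at the 94.6 percentile or above. By count, CCT7 lay lower, at the 86.5 percentile, and CCT4 lay at the 93.2 percentile. Both genes lie on chromosome 2, CCT4 from 61868085 to 61888671 and CCT7 from 73233420 to 73253021. HSPD1 and HSPE1 also lie there, so that 4 of the 10 genes are on chromosome 2.

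**Figure D1:**
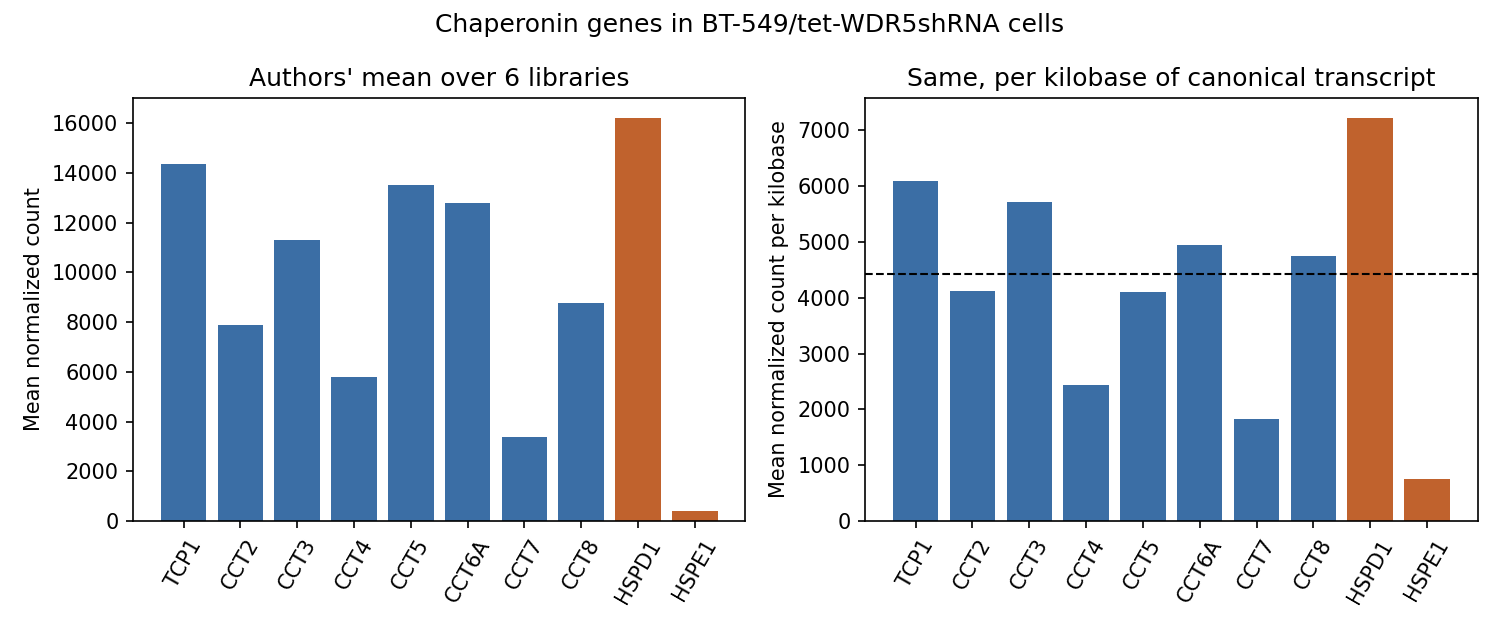
Bars give the authors' mean normalized count over 6 libraries for the 10 genes (left) and the same value per kilobase of canonical transcript (right), in blue for TRiC and in orange for HSPD1 and HSPE1. The dashed line is the median of the 8 TRiC genes, 4429 per kilobase; HSPD1 is the tallest bar on both sides, CCT7 is the lowest TRiC gene and HSPE1 is lower than all others.

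The ring of TRiC takes up its subunits in equal number, so the balance between their transcripts was examined per kilobase. From the highest to the lowest, the order was TCP1, CCT3, CCT6A, CCT8, CCT2, CCT5, CCT4 and CCT7. Neighbours in this order differed by at most 1.16-fold down to CCT5. A step of 1.68-fold then separated CCT5 from CCT4, and a step of 1.33-fold separated CCT4 from CCT7. With no value for a single library, it cannot be said which neighbours differ by more than the spread between cultures. The coefficient of variation over the 8 subunits was 35.0%, and without CCT7, an alternative chosen after seeing the data, it was 26.3% and the range was 2.50-fold.

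The level per kilobase depends on which length is taken for a gene, so 4 definitions were compared. CCT7 was the lowest subunit with the canonical transcript, the union of all annotated exons, the longest transcript, and the canonical transcript less 200 bases. TCP1 was the highest in 3 of these, and CCT6A was the highest with the union of exons. CCT4 moved from 0.552 of the subunit median with the canonical transcript to 0.855 with the union of exons, since its length grew the least of the 10 genes, from 2376 to 2701 bases. HSPD1 was 1.63-fold above the subunit median with the canonical transcript but at 0.845 and 0.759 of it with the union of exons and the longest transcript. Whether HSPD1 lies above or below the TRiC genes per kilobase is thus not settled by these values.

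**Figure D2:**
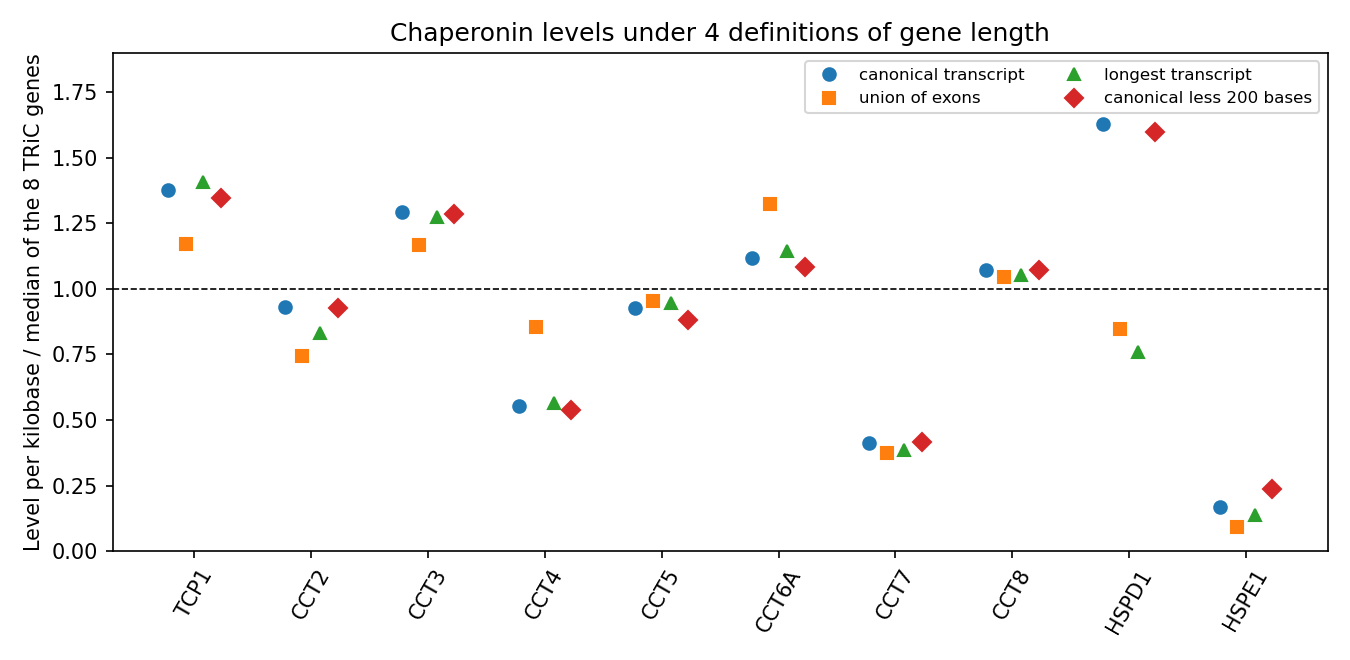
Each point gives the level per kilobase of 1 gene, divided by the median of the 8 TRiC genes, under 1 of 4 definitions of its length, and the dashed line marks a ratio of 1. CCT7 is the lowest TRiC gene under all 4, from 0.376 to 0.414; HSPD1 moves from 1.63 to 0.759 and HSPE1 stays between 0.0907 and 0.235.

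HSPD1 had a mean normalized count of 16207, the rank 184 among all genes, and 7219 per kilobase. It lay at the 98.6 percentile on both scales. HSPE1 had a mean normalized count of 415, the rank 8152, and 746 per kilobase. It lay at the 39.8 percentile by count and at the 80.3 percentile per kilobase, and was at 0.168 of the TRiC median. HSP60 and HSP10 act together, yet their transcripts differed by more than any pair of TRiC subunits. HSPD1 lies on the minus strand from 197486584 to 197516737, with 12 exons and 2245 bases in its canonical transcript. HSPE1 lies on the plus strand from 197500140 to 197503449, with 4 exons and 557 bases. The ratio per kilobase was 9.32 with the union of exons, 5.54 with the longest transcripts and 6.81 with 200 bases taken off each length, and HSPD1 was the higher gene in each.

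Several properties of HSPE1 bear on how its reads can be counted. A readthrough gene on the same strand, HSPE1-MOB4, joins HSPE1 to its neighbour MOB4, and 34.5% of the canonical HSPE1 bases lie inside exons of that gene. HSPE1-MOB4 and MOB4 were not analysed here. GENCODE 44 annotates 26 pseudogenes named after HSPE1 and 18 named after HSPD1, more than for any TRiC subunit, for which there were 4 at most. Of the 50-base windows of the canonical transcripts, 37.2% in HSPE1 and 41.3% in HSPD1 were found letter for letter elsewhere in GRCh38. Of the 100-base windows, 11.6% and 12.3% were. The part of shared exons and shared windows in the value of HSPE1 was not tested.

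**Figure D3:**
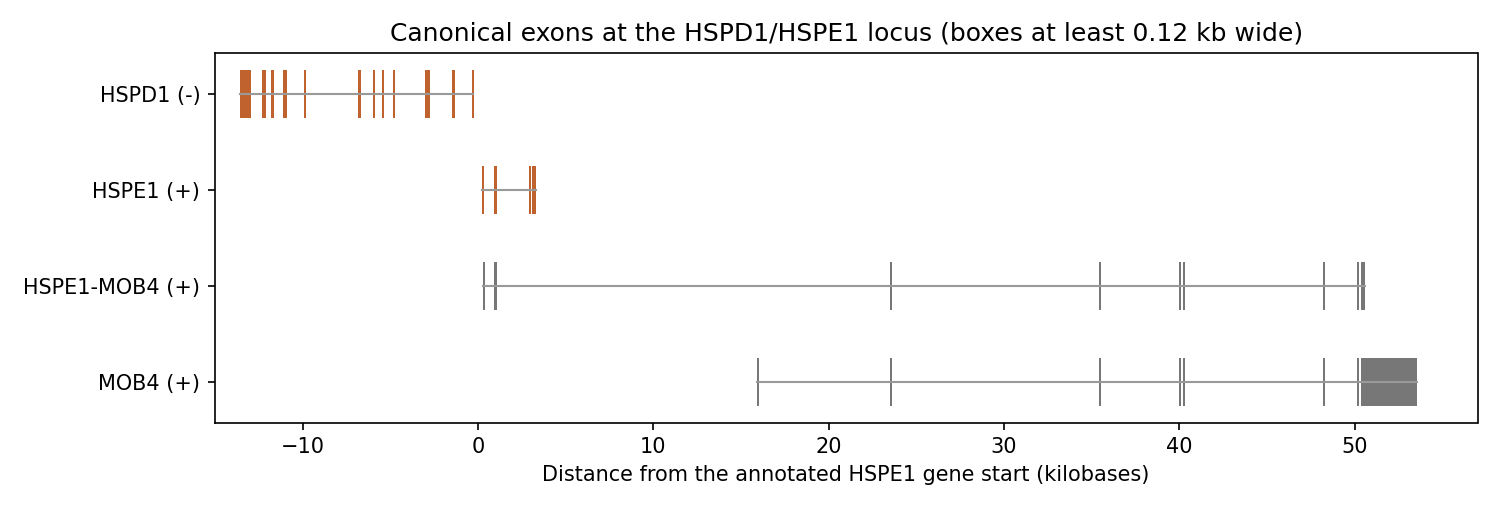
Boxes are exons of the canonical transcripts of HSPD1 and HSPE1 (orange) and of HSPE1-MOB4 and MOB4 (grey), with the strand after each name, along the distance from the annotated HSPE1 gene start in kilobases. HSPD1 runs to the left and HSPE1 to the right, and the first exons of HSPE1-MOB4 lie over those of HSPE1, covering 34.5% of its bases.

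To put this value into context, protein-coding genes were divided by the share of their canonical bases inside same-strand exons of another protein-coding gene. Overlap with noncoding genes was not counted. The division was made after the value of HSPE1 had been seen. The median mean normalized count was 456 for 14455 genes with no such bases and 433 for 939 genes with less than 50% of their bases, the class that holds HSPE1. It was 99.5 for 442 genes with 50% or more. By count, HSPE1, at 415, was thus close to the median of its own class and also to that of genes with no such bases. Per kilobase, HSPE1 had 746 and lay above both medians, 122 in its class and 128 for genes with no such bases. The classes also hold genes below the minimum count used for ranking, which made up 16.9% of the class of HSPE1. Among genes with no shared bases, 16.5% were higher than HSPE1 per kilobase, against 13.0% in its class.

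Other members had fewer such features. Windows of 50 bases found elsewhere made up 12.5% of CCT8, 8.25% of TCP1, 6.19% of CCT6A, 3.05% of CCT5 and 1.16% of CCT4. No such window was found for CCT2, CCT3 and CCT7. The part of shared windows in the values of the subunits was not tested. Of the 58 pseudogenes named after the 10 genes, 2 were among the genes analysed, and both belong to CCT6A. CCT6P1 had a mean normalized count of 204, or 1.60% of that of CCT6A, and CCT6P3 had 51.5, or 0.402%. On the opposite strand, exons of ACAT2, with a mean normalized count of 2580, cover 19.3% of the canonical bases of TCP1, and a long noncoding gene (ENSG00000271980) covers 52.7% of those of CCT5. Exons of 2 further long noncoding genes cover 19.2% of CCT4, one of the 2 lowest subunits, and those of another cover 4.58% of CCT8. The libraries were stranded, but whether the counting used strand is not given in the sources used here. The values of TCP1, CCT4, CCT5 and CCT8 are therefore uncertain to the extent that reads of the opposite strand entered them.

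Among all genes, the 8 TRiC genes and HSPD1 lay at the 92.4 percentile or above per kilobase, and HSPE1 lay lower. The median level of all genes with a length was 207 per kilobase. Only 360 genes lay above the TRiC median and 1008 above CCT7. Together, the 10 genes held 0.356% of the sum of the mean normalized counts, and the 8 TRiC genes held 0.293%.

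**Figure D4:**
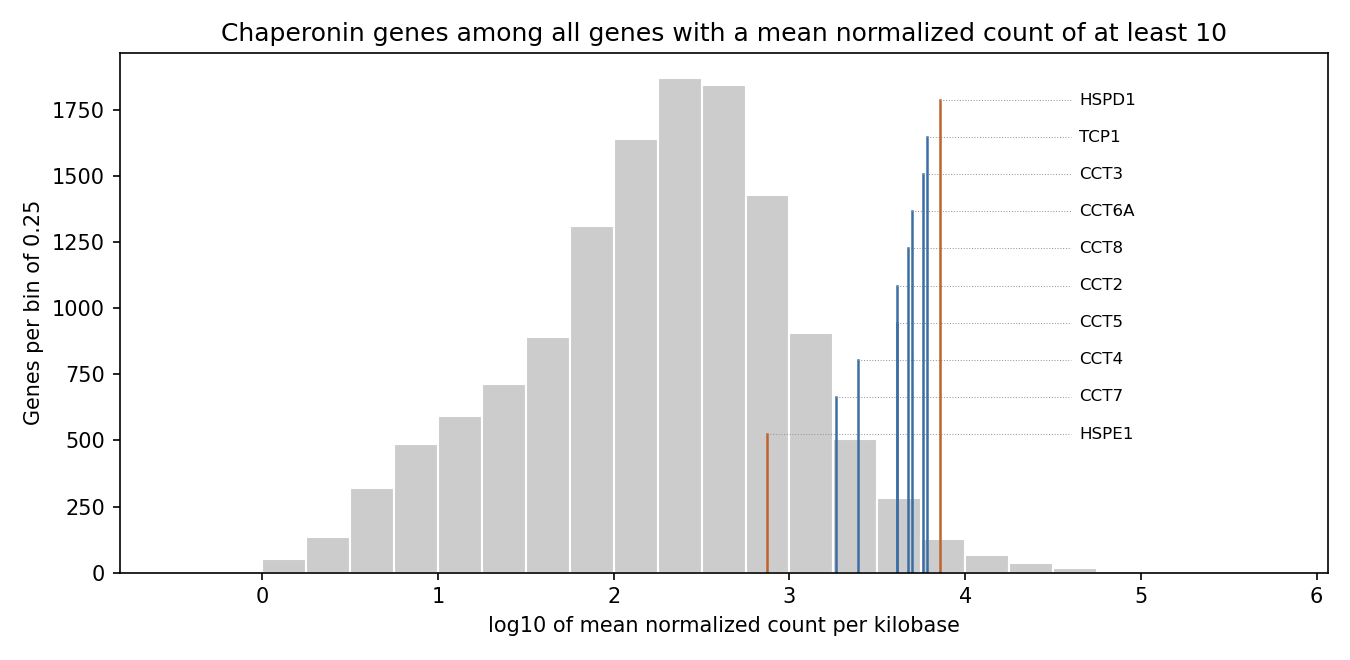
Grey bars count genes whose mean normalized count reached 10, in bins of 0.25 of the log10 level per kilobase, and coloured lines, whose heights only separate the names, mark the chaperonin genes, in blue for TRiC and in orange for HSPD1 and HSPE1. All TRiC genes stand in the right tail, from CCT7 at the 92.4 percentile to TCP1 at the 98.3 percentile, and HSPE1 stands apart at the 80.3 percentile.

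Prefoldin takes unfolded actin and tubulin from the ribosome and hands them to TRiC. All 6 of its subunit genes were detected, from 477 per kilobase for PFDN4 to 3782 for PFDN5. Their median of 2216 per kilobase was 0.5003 of the TRiC median, and none of the 6 reached that median. PDCL and PDCL3, phosducin-like proteins that bind TRiC as cofactors, had 298 and 516 per kilobase. Of the R2TP and prefoldin-like genes, RUVBL1 and RUVBL2, which encode ATPases of an assembly chaperone, had 1806 and 1971 per kilobase, and the median over 7 genes was 669. In the whole list of cofactors and relatives, 19 of 21 genes had a value, with a median of 543 per kilobase.

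Relatives of TRiC subunits that had a value were lower than every TRiC subunit, by count and per kilobase. CCT6B, the paralog of CCT6A that is known from testis, had a mean normalized count of 41.9 and 22.7 per kilobase, and CCT6A was 305-fold higher by count and 218-fold higher per kilobase. MKKS, BBS10 and BBS12, chaperonin-like proteins that assemble the BBSome of cilia with TRiC, had 173, 170 and 70.7 per kilobase. By count they had 1160, 606 and 229. Their canonical transcripts have 6714, 3568 and 3238 bases, so their values per kilobase rest on the annotated length. Transcripts for the zeta position were thus almost wholly those of CCT6A.

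The substrates of TRiC were spread more widely than its subunits. Among the 11 actin and tubulin genes, ACTB was the highest with 101231 per kilobase, which is 22.9-fold above the TRiC median. ACTG1 had 30805, the beta tubulin gene TUBB had 21285 and the alpha tubulin gene TUBA1B had 17220 per kilobase. At the other end, TUBB2B had 93.7 per kilobase. Of its 50-base windows, 54.0% were found elsewhere in GRCh38, a larger share than in HSPE1. Among the high genes named above, the share was 59.4% in TUBA1B, 23.4% in TUBB, 19.1% in ACTB and 8.24% in ACTG1. The values of close tubulin copies are thus uncertain, for high genes as well as low ones. Of these 11 genes, 7 were above the TRiC median. Among the 6 WD40 propeller genes, 1 was, the G protein subunit gene GNB1 with 5071 per kilobase. CDC20, the activator of the anaphase-promoting complex, had 2288, and MLST8, a subunit of the mTOR complexes, had 355. Over all 17 substrates the median was 2303 per kilobase.

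In mitochondria, HSP60 receives proteins from the HSP70 of the matrix, which is encoded by HSPA9. HSPA9 had 8365 per kilobase and was 1.16-fold above HSPD1. Of the 12 partners whose mean normalized count reached 10, it was the only one above the TRiC median. TIMM23, the channel of the inner membrane, had 1816, the matrix protease LONP1 had 1510 and the mitochondrial HSP90 gene TRAP1 had 1422 per kilobase. The nucleotide exchange factors GRPEL1 and GRPEL2 had 613 and 724, and the median of the 12 genes was 683. Per kilobase, HSPE1, at 746, was therefore near the middle of these genes, and HSPD1 and HSPA9 were above all the others. By mean normalized count, HSPE1, at 415, was above only DNAJC19, at 376, and the next of the 12 genes was HSCB, at 497. The remaining partner, PAM16 of the import motor, had a mean normalized count of 4.09.

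The core proteasome was taken as another complex with subunits in equal number, a choice made after values had been seen. Its 14 ring genes ranged from 904 per kilobase for PSMA4 to 5485 for PSMA6, with a median of 3078. Per kilobase, the range was 6.07-fold and the coefficient of variation 52.6%, against 3.33-fold and 35.0% for TRiC. By count, with no division by length, the ring genes lay between 1628 for PSMB6 and 5611 for PSMA6. The TRiC genes lay between 3383 and 14351 by count, a wider range of 4.24-fold. Whether the balance within TRiC is closer than that within the proteasome was not tested. PSMA4, PSMA5 and PSMB2, the lowest ring genes per kilobase, have canonical transcripts of 4378, 3815 and 4426 bases. Their values per kilobase thus rest on the annotated length.

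**Figure D5:**
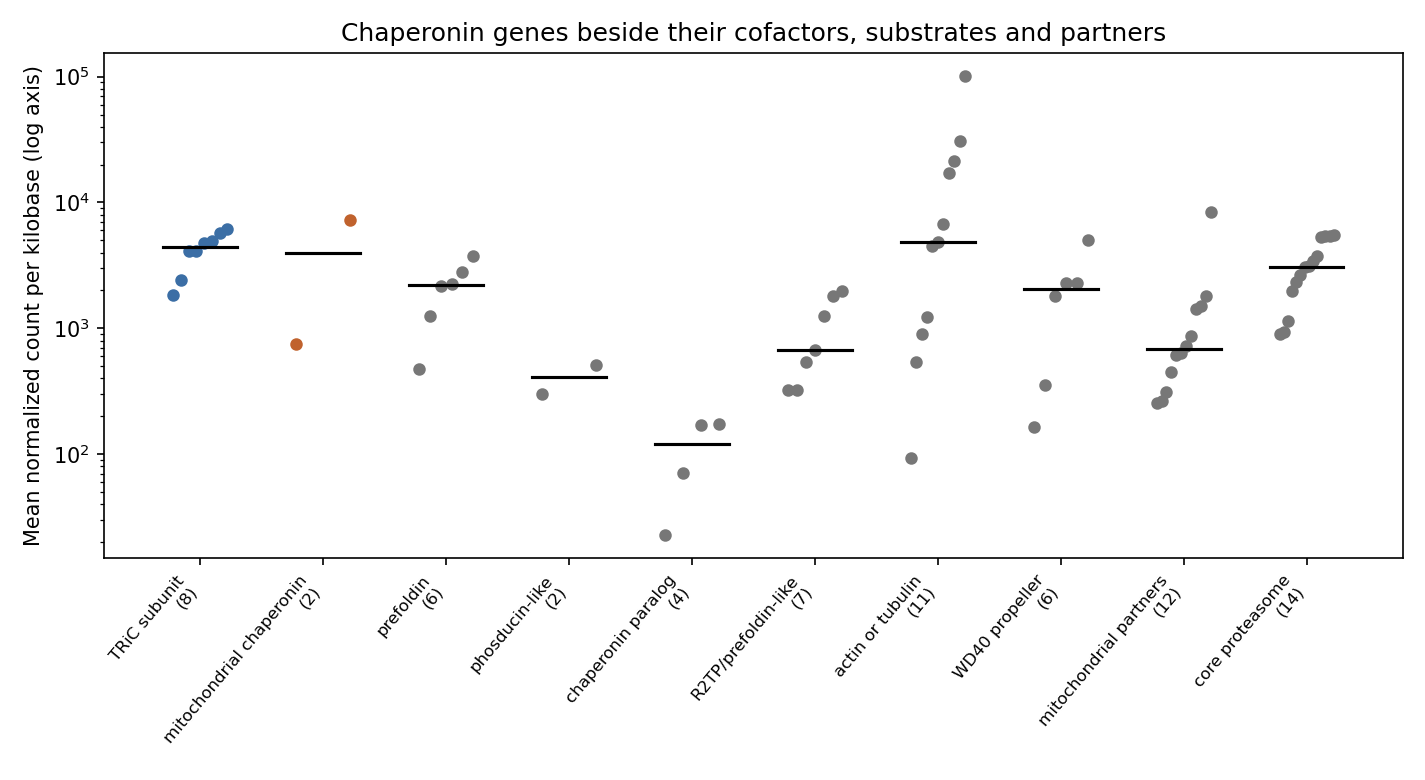
Each point is 1 gene whose mean normalized count reached 10, black lines are medians, the number of genes stands in parentheses, and the axis of the level per kilobase is logarithmic. TRiC (blue) lies between 1831 and 6101, above all 4 chaperonin paralogs, whereas actin and tubulin genes reach 101231; the mitochondrial pair (orange) is split between 7219 and 746.

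Promoter windows were found for 9 of the 10 genes, all but CCT6A, with 12 windows in all. A heat shock core of either orientation was present in a window of 4 genes, TCP1, CCT2, CCT4 and HSPD1. Of all windows, 13.5% held such a core. CCT2, CCT4 and HSPD1 each had a pair of windows, and in each pair the core lay in only a single window. By windows, 4 of the 12 thus held a core, and the windows of the CCT4 pair largely overlap. Whether this differs from the share of all windows was not tested. The core GAANNTTC was found in 3 of the 12 windows, against 6.773% of all windows, and TTCNNGAA in 2 of 12, against 7.742%. No core was found in the windows of CCT3, CCT5, CCT7, CCT8 and HSPE1. The windows of CCT3, CCT5 and CCT7 lie wholly inside the annotated spans of these genes. For CCT5 the window begins at 10250287 and the annotated gene at 10249929. The outermost annotated starts of these genes were therefore not searched, and a missing motif does not describe them. Of the subunits with a window, those with a core were thus TCP1 above the median and CCT2 and CCT4 below it. The CCAAT box, which binds NF-Y, was found in 4 of 12 windows, those of TCP1, CCT2, CCT3 and CCT8, against 34.61% of all windows. The TATA box, searched as TATAAA, was found in none of the 12, against 11.53%. The windows had between 57.67% and 70.67% GC, and the median of all windows was 58.67%.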

How the data were processed

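The RNA-seq libraries, 3 with vehicle and 3 with DOX, came from BT-549/tet-WDR5shRNA cells and were grouped by the labels. By the study's methods and the submitters' processing notes, the authors prepared stranded poly(A) libraries, aligned reads to GRCh38 with STAR and normalized the counts with DESeq2. The methods name Trizol, and the sample labels name a column kit. The methods add a suffix to the genome's name that may stand for an annotation release. The counter and its strand setting are not given in the sources used here.

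For each gene the authors deposited a signal, its normalized count averaged over all 6 libraries. The deposited table also has 5 columns of the authors' own comparison of DOX with vehicle (log2 fold change, standard error, statistic, p-value and adjusted p-value), which were not used here. No column holds a single library, so the test planned for DOX against vehicle could not be run. Precision cannot be given, since the depth of each library is unknown.

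Symbols were matched to GENCODE 44 on GRCh38. Of 19792, 17921 matched directly, 739 through a synonym and 1132 did not. The mean normalized count was divided by the length of the canonical transcript in kilobases, and genes with a count of at least 10 were ranked. Every gene of the lists may be named with its value. Members and lists were chosen with earlier results of these data known. Motifs were searched in RefSeq promoter windows (GRCh38.p14). Windows of 50 and 100 bases were matched to both strands of 24 chromosomes. The functions were tested on simulated data. Alternatives were other lengths, other ranking filters and the addition of pseudogene values. Comparisons of protein sequences were not run. Python 3.11.15, numpy 2.4.6, pandas 2.3.3 and matplotlib 3.10.9 were used.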

Additional observations from a re-analysis of the deposited data

How the results depend on the processing

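With the union of all annotated exons, the highest TRiC subunit was 3.53-fold above the lowest, the coefficient of variation was 31.3% and HSPD1 over HSPE1 was 9.32. With the longest transcripts these values were 3.66-fold, 36.6% and 5.54. With 200 bases taken off each length they were 3.25-fold, 35.0% (34.9889) and 6.81. When values of pseudogenes and of overlapping genes on the same strand were added, the TRiC values were 3.33-fold (3.33281) and 35.1%. For 8 of the 10 genes, HSPD1 and HSPE1 among them, there was no value to add. Their levels, and the ratio of 9.68 for HSPD1 over HSPE1, could therefore not change. Without CCT7, chosen after seeing the data, the TRiC values were 2.50-fold and 26.3%. The level of single members moved to between 0.294 and 0.880 of its value with the union of exons, between 0.455 and 1 with the longest transcript, and between 1.06 and 1.56 with 200 bases taken off. The percentile of HSPE1 by count ranged from 24.6 among genes whose mean normalized count reached 100 to 58.8 among all genes above 0. That of CCT7 ranged from 83.1 to 90.7 under the same filters.

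No paired analysis was possible because the values used hold no column of a single library. For the same reason, leaving out a replicate, other normalizations and filters for DOX against vehicle, and tests of outlying libraries were not run. The unknown depth limits the low values most, such as those of PAM16 and CCT6B.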

Other observations

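The subunits of a TRiC ring are known to sit in the circular order TCP1, CCT4, CCT2, CCT5, CCT7, CCT8, CCT6A and CCT3. In these libraries the 4 subunits above the median per kilobase were CCT8, CCT6A, CCT3 and TCP1, which follow each other in that circle, and the 4 below it were CCT4, CCT2, CCT5 and CCT7, which form the other side. The same genes were above the median under all 4 definitions of length, but these definitions divide the same counts and are not independent. CCT8 and CCT2, which lie on either side of the median, differed by 1.15-fold with the canonical transcript, and the spread between cultures is unknown. By mean normalized count, with no division by length, CCT5 took the place of CCT8 among the upper 4. The arrangement was noticed after the values had been seen and was not tested, and it concerns transcripts and not proteins.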
